A study of Homo sapiens with 2 samples.

Results

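The mitochondrial ribosomal protein genes were examined in HCT116, a human colorectal cancer cell line. The members were all genes whose current symbol is MRPL or MRPS followed by a number and an optional letter, pseudogenes left out. RefSeq lists 77 such genes, 49 of the large subunit (MRPL) and 28 of the small subunit (MRPS), and 75 of them had at least 1 probe set paired with no other gene. The 75 were drawn from 13704 genes measured in all. The study compared HCT116-CPEB4 cells, made to over-express the RNA-binding protein CPEB4 with a lentivirus, with wild-type HCT116 cells labelled HCT116-GFP, and each was measured on 1 array of biotin-labelled RNA. Both lines were grown in the same serum-containing medium. The labels do not say whether the HCT116-CPEB4 line is a clone or a pool, nor whether the GFP in the name of the other line came from a vector of its own.

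The mitochondrial ribosome translates the few messenger RNAs of the mitochondrial genome, all of which encode subunits of the respiratory chain and of ATP synthase. Its RNAs are transcribed in the mitochondrion, while every one of its proteins is encoded in the nucleus, made on cytosolic ribosomes and imported. Some of the proteins have counterparts in bacterial ribosomes, and others are found in mitochondria and not in bacteria. Colon epithelial cells, like other cells with mitochondria, need it to build their respiratory chain.

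The values are linear intensities of 54675 probe sets, with a median of 61.1 on the HCT116-CPEB4 array and 60.6 on the HCT116-GFP array. A probe set was kept if its higher intensity reached 60.8, the 50th percentile of all values, and each gene took its brightest kept probe set. Each difference is the log2 intensity in HCT116-CPEB4 minus that in HCT116-GFP, so a positive value means higher in HCT116-CPEB4. With 1 array a group there is no replicate error, no p-value was computed, and "higher" or "lower" below describes these 2 arrays. The 4 probe sets of CPEB4 read 628, 558, 174 and 21.0 on the array labelled HCT116-CPEB4, against 731, 758, 183 and 60.1 on the HCT116-GFP array in the same order, so none was higher in the cells meant to over-express it. The direction of every difference therefore rests on the labels. All 10 colon epithelial markers had a probe set, and 7 of them were above 377 on each array, the 75th percentile of all values. CDX2, VIL1 and CEACAM5 stayed below that level, at 120, 77.0 and 84.3 in HCT116-CPEB4 and 103, 32.2 and 66.3 in HCT116-GFP. Of the 3 endothelial, 3 neuronal and 3 measured blood markers none reached that level, while 1 of 5 fibroblast markers, COL1A1, did on both arrays, and 1 of 3 kidney markers, PAX2, on the HCT116-CPEB4 array. The summed intensity of the fibroblast markers was 1484 in HCT116-CPEB4 and 1071 in HCT116-GFP, and that of the epithelial markers 90352 and 89746. The ratio of 3′ to 5′ signal of ACTB, a sign of RNA quality that increases as RNA is broken down, was 10.3 in HCT116-CPEB4 and 8.23 in HCT116-GFP, while that of GAPDH was 1.04 and 0.989, and the part of RNA quality in the differences below was not tested.

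Messenger RNAs of the mitochondrial ribosome were slightly more abundant on the HCT116-CPEB4 array, and by a narrow range of amounts. Of the 75 genes, 52 lay above 0 and 23 below, with a median difference of 0.12, or 1.09-fold. Of the mitochondrial ribosomal protein genes 69.3% lay above 0, against 50.1% of all genes. No gene of the family differed by 2-fold or more in either direction, while 3.55% of all genes were higher and 3.85% lower by that rule. Bright genes seldom passed it: of 1259 genes as bright as the middle 50% of the members, 1 was higher and 1 lower (0.0794% each), so the absence of such differences among the members is no result about them. At 1.2-fold, 10 members were higher and 0 were lower, against 21.7% and 22.0% of all genes. The uneven count of 52 above and 23 below 0 came mostly from differences smaller than 1.2-fold. In bulk RNA, more of a transcript in every cell and more cells that hold it cannot be told apart.

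All 75 genes were above the 75th percentile of intensity on both arrays. The chosen probe sets read between 627 and 16186 in HCT116-CPEB4 and between 563 and 16053 in HCT116-GFP. The middle 50% of the members had mean intensities from 3123 to 6675, and 1259 genes of the array fell in that range. Of the 37 members in that range 23 lay above 0 (62.2%), 5 were higher by 1.2-fold and 0 lower. Among the 1259 genes 51.2% lay above 0, and 11.4% were higher and 12.9% lower by 1.2-fold, so the share of members higher by 1.2-fold was near that background. The median of the 37 members was 0.11, and their differences had a standard deviation across genes of 0.19, against 0.25 across the 1259 genes. Across all 75 members the standard deviation was 0.17. Across the 75 members the difference was nearly unrelated to brightness (Spearman's rho across genes 0.09, all from the same 2 arrays).

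The large and the small subunit differed little in their medians. Of 48 large-subunit genes, 36 lay above 0 and 12 below, with a median of 0.13. Of 27 small-subunit genes, 16 lay above 0 and 11 below, with a median of 0.10. The medians were 0.03 apart, less than the standard deviation across genes within either subunit (0.15 in the large and 0.19 in the small). The 25th percentile was 0.01 in the large subunit and −0.10 in the small, and the 75th percentiles were 0.20 and 0.18. At 1.2-fold, 7 of 48 large-subunit genes and 3 of 27 small-subunit genes were higher. The share was 21.7% over all genes and 11.4% over the 1259 genes in the middle brightness range of the members. These counts are therefore no result about either subunit. No test of the difference between subunits can be had with 1 array a group.

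**Figure D1:**
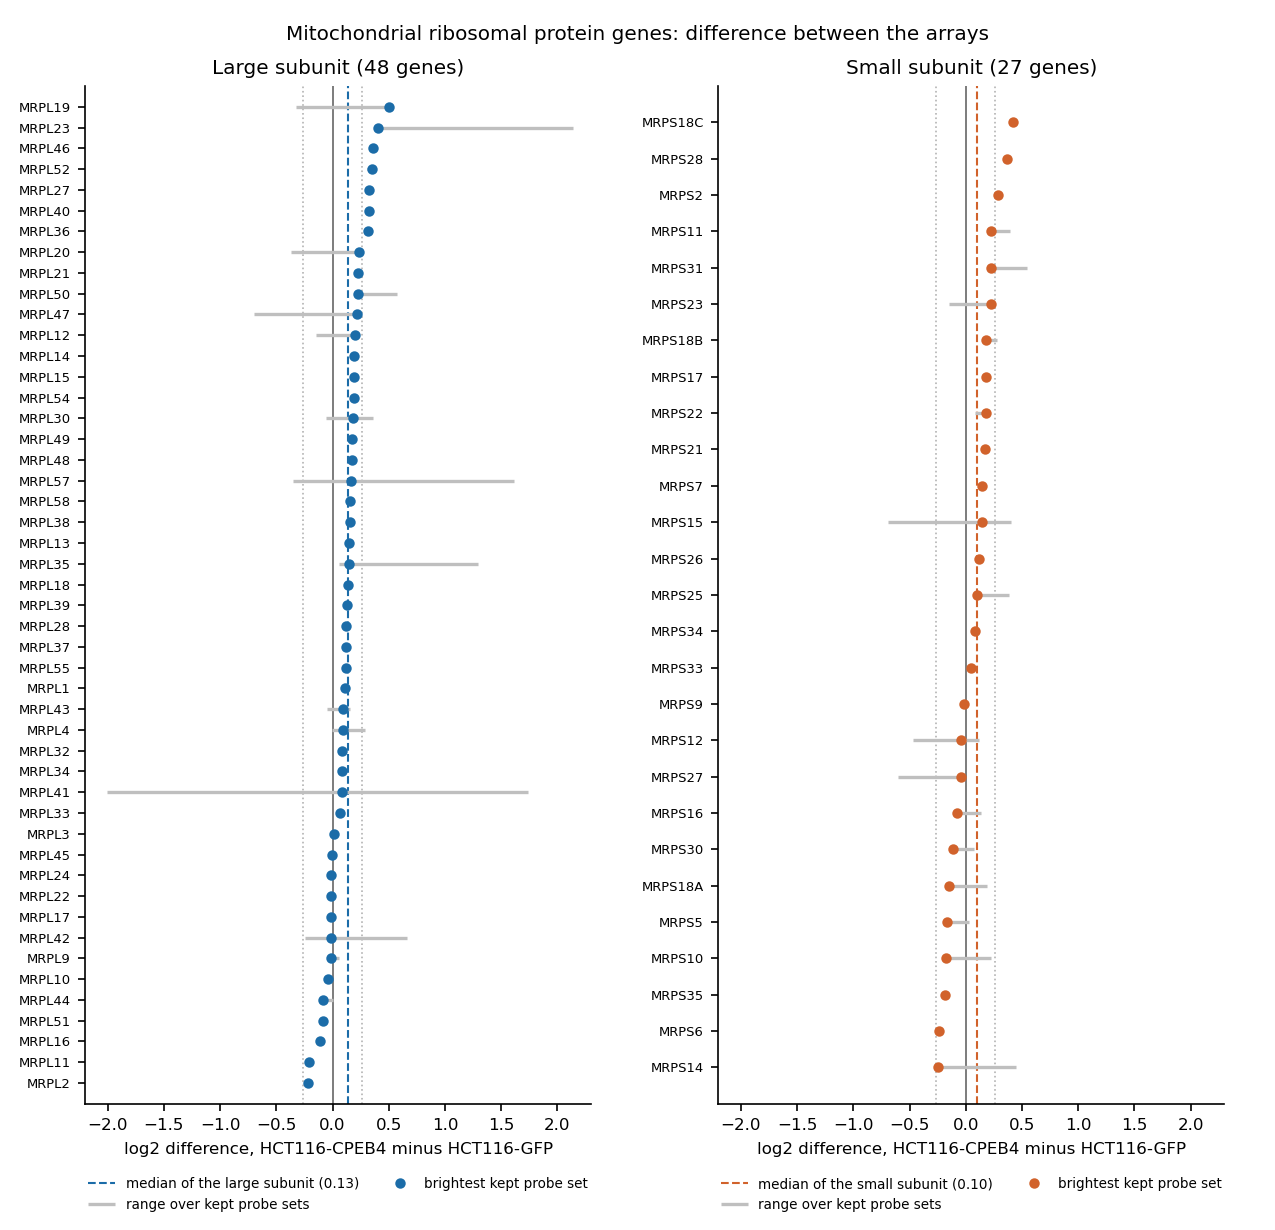
Log2 difference (HCT116-CPEB4 minus HCT116-GFP) of each mitochondrial ribosomal protein gene, ranked from highest to lowest, with large-subunit genes on the left and small-subunit genes on the right. Points are the brightest kept probe set, grey bars span all kept probe sets, dashed lines are the subunit medians (0.13 and 0.10) and dotted lines mark 1.2-fold. Most points lie between 0 and the upper dotted line, and none passes the lower one.

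Among large-subunit genes the highest difference was that of MRPL19, the counterpart of a bacterial protein at the interface between the subunits. It read 5959 in HCT116-CPEB4 and 4195 in HCT116-GFP, a difference of 0.51 or 1.42-fold, at percentile 90.0 of all genes. Its other kept probe sets were dim and read 140.2 and 155 in HCT116-CPEB4, against 132 and 193 in HCT116-GFP, so only the bright one carries the difference. MRPL23, which lies at the exit of the nascent peptide tunnel, read 4416 in HCT116-CPEB4 and 3335 in HCT116-GFP (0.40), and its dim second probe set read 80.7 and 18.3. MRPL46, a mitochondria-specific protein of the central protuberance, read 2361 in HCT116-CPEB4 and 1844 in HCT116-GFP (0.36). These 3 genes were the large-subunit members farthest above 0.

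The other large-subunit genes past 1.2-fold came next in rank. MRPL52, another mitochondria-specific protein, read 4529 in HCT116-CPEB4 and 3552 in HCT116-GFP (0.35), with 0.31 at its dim probe set. MRPL27, whose bacterial counterpart reaches into the peptidyl transferase centre, read 7589 in HCT116-CPEB4 and 6062 in HCT116-GFP (0.32). MRPL40, also of the central protuberance, read 5273 in HCT116-CPEB4 and 4215 in HCT116-GFP (0.32). These genes were picked by the size of their difference, so the likeness of their values is no result about them. MRPL36, one of the smallest proteins with a bacterial counterpart, read 10491 in HCT116-CPEB4 and 8439 in HCT116-GFP (0.31).

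In the small subunit, 3 genes passed 1.2-fold upwards. MRPS18C, a relative of bacterial protein S18, read 4845 in HCT116-CPEB4 and 3614 in HCT116-GFP (0.42). Its second kept probe set gave 0.43 but was dim, at 82.8 in HCT116-CPEB4 and 61.5 in HCT116-GFP. MRPS28 read 10984 in HCT116-CPEB4 and 8516 in HCT116-GFP (0.37). MRPS2, the counterpart of a bacterial protein that joins the small subunit late in assembly, read 2161 in HCT116-CPEB4 and 1771 in HCT116-GFP (0.29). MRPS18C was the one of these with more than 1 kept probe set.

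The 10 lowest differences came from 7 MRPS genes and 3 MRPL genes, and all of them were smaller than 1.2-fold. MRPS14, a protein of the head of the small subunit, read 3555 in HCT116-CPEB4 and 4218 in HCT116-GFP (−0.25), but its dim second probe set gave 0.44. MRPS6, the counterpart of the bacterial S18 partner S6, read 3938 in HCT116-CPEB4 and 4649.6 in HCT116-GFP (−0.24). MRPL2, whose bacterial counterpart helps to form the peptidyl transferase centre, read 1438 in HCT116-CPEB4 and 1675 in HCT116-GFP (−0.22), and its second probe set gave −0.21. MRPL2 was thus the lowest member whose several probe sets agreed.

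MRPL11, which forms the docking site of the translational GTPases, read 3135 in HCT116-CPEB4 and 3623 in HCT116-GFP (−0.21). MRPS35, a mitochondria-specific protein, read 3772 in HCT116-CPEB4 and 4290.2 in HCT116-GFP (−0.19). MRPS10, of the head of the small subunit, read 6416 in HCT116-CPEB4 and 7232 in HCT116-GFP (−0.17), with other probe sets up to 0.23. The sign of MRPS10 thus depends on the probe set. MRPS5, whose bacterial counterpart affects the accuracy of decoding, read 3179 in HCT116-CPEB4 and 3566 in HCT116-GFP (−0.17). Its second kept probe set gave 0.03, so its sign also depends on the probe set. MRPL16, which contacts the incoming transfer RNA in bacteria, read 4139 in HCT116-CPEB4 and 4459.8 in HCT116-GFP (−0.11). The remaining pair of this group, MRPS18A and MRPS30, is described next.

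**Figure D2:**
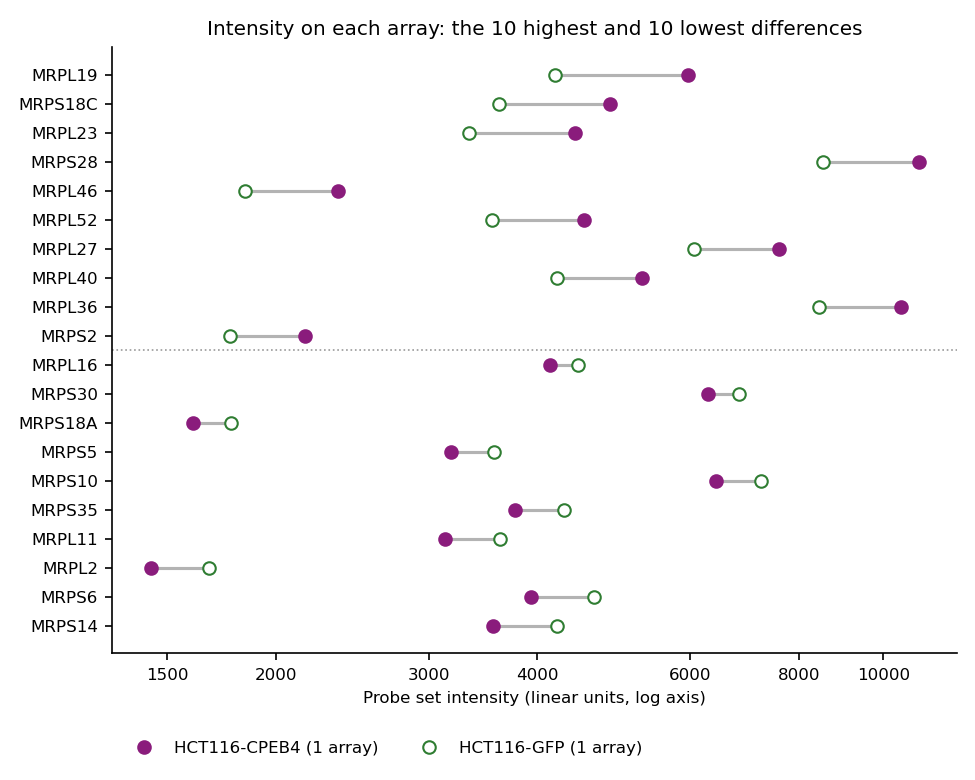
Intensity of the brightest kept probe set on the HCT116-CPEB4 array (filled) and on the HCT116-GFP array (open), 1 array each, for the 10 members with the highest differences (above the dotted line) and the 10 with the lowest (below it), on a log axis. The gap within a row is the difference, from 5959 and 4195 for MRPL19 at the top to 3555 and 4218 for MRPS14 at the bottom, and levels of different rows come from different probes and are not comparable.

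A symbol does not always give the place of a protein in the ribosome. MRPS30 and MRPS18A are named for the small subunit, but RefSeq lists them under the unified names mL65 and mL66, which place them in the large subunit. MRPS30 read 6288 in HCT116-CPEB4 and 6823 in HCT116-GFP (−0.12), with its dimmer probe sets at 0.03 and 0.07. MRPS18A read 1606 in HCT116-CPEB4 and 1778 in HCT116-GFP (−0.15), while its second probe set, about as bright, read 1765 and 1546 (0.19), so its direction is not settled. Counting both as large-subunit genes brought the medians to 0.13 over 50 large-subunit genes and 0.12 over 25 small-subunit genes, 0.01 apart, and the 25th percentiles to −0.01 and −0.04. The gap between the subunits by symbol, in the medians and in the lower tail, thus rested largely on where these 2 genes are counted.

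The family holds 3 relatives of bacterial S18. MRPS18C, which holds the place of S18 in the small subunit, was second highest of all members, and MRPS18B (mS40) read 6702 in HCT116-CPEB4 and 5928 in HCT116-GFP (0.18), with 0.28 at its second probe set. MRPS18A was among the 10 lowest at its brighter probe set, as given above. MRPS18B and MRPS18C were higher in HCT116-CPEB4 at every kept probe set, although the second one of MRPS18C was dim. The probe sets of MRPS18A, at −0.15 and 0.19, do not settle whether it differed from them.

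A few members have a described activity beyond the ribosome's frame. MRPL12, the stalk protein that recruits translation factors and has been reported to bind the mitochondrial RNA polymerase, read 5714 in HCT116-CPEB4 and 4978 in HCT116-GFP (0.20), with −0.15 at a dim probe set. MRPL58, a peptidyl-tRNA hydrolase that frees stalled chains, read 4603 in HCT116-CPEB4 and 4128 in HCT116-GFP (0.16). MRPL44, which has the fold of a double-stranded RNA nuclease, read 1949.8 in HCT116-CPEB4 and 2067 in HCT116-GFP (−0.08). The second probe set of MRPL44 read 1140 on both arrays. MRPL12 and MRPL58 were within 0.10 of the median of all 75 members. MRPL44 lay below that median, and below 0 only at its brightest probe set.

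Medians differed little by evolutionary origin. RefSeq gives a unified name to 74 of the 75 genes, in which u marks proteins shared by all ribosomes, b those shared with bacteria and m those specific to mitochondria. The 44 u and b genes had a median of 0.12, with 29 above 0 and 15 below, and the 30 m genes had a median of 0.13, with 22 above 0 and 8 below. In the large subunit the medians were 0.16 over 18 m genes and 0.12 over 30 u and b genes, and in the small subunit 0.09 over 12 m genes and 0.07 over 14 u and b genes. MRPS28 had no unified name in the table.

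Probe sets of one gene, read on the same 2 arrays, show how far probes disagree and not how far arrays or cultures would. Of the 75 genes, 42 had 1 kept probe set and 33 had several, and the 2 brightest kept probe sets of those 33 differed by a median of 0.19, more than the family median itself. Over the 6520 genes with several kept probe sets the corresponding gap was 0.27. Where both probe sets were above 377 it was 0.10 for 21 members and 0.18 for 2828 genes of the array. The kept probe sets were all above 0 in 10 of the 33 genes, all below 0 in 2, and on both sides of 0 in 21. In those 21 genes the direction depends on which probe set is read.

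In 9 genes the kept probe sets differed in sign with a gap of 0.5 or more: MRPL41, MRPL57, MRPS15, MRPL47, MRPL42, MRPL19, MRPS14, MRPL20 and MRPS12. The widest was MRPL41, whose 5 probe sets ran from −2.0 to 1.74, although its bright ones read 9198 and 3158 in HCT116-CPEB4 against 8691 and 2794 in HCT116-GFP (0.08 and 0.18). The extreme probe sets of MRPL41 read 17.0 and 186 in HCT116-CPEB4 against 67.9 and 55.7 in HCT116-GFP. The first passed the filter of 60.8 only through the HCT116-GFP array, and the second only through the HCT116-CPEB4 array. MRPL57 is different in that a brighter probe set was involved, with 2217 in HCT116-CPEB4 and 2819 in HCT116-GFP (−0.35) beside 11680 and 10393 (0.17) at its brightest and 823 and 269 (1.61) at another. MRPL42 had −0.02 at its brightest probe set, −0.24 at the next and 0.67 at 1130.2 in HCT116-CPEB4 and 712 in HCT116-GFP. MRPL20 and MRPL47, at 0.24 and 0.22 by their bright probe sets, had dim ones at −0.37 and −0.70. MRPS15 was at 0.15 and ran from −0.69 to 0.40, and MRPS12, of the decoding centre, was at −0.04 and ran from −0.47 to 0.12.

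Over probe sets in place of genes the picture was the same in the bright range and scattered in the dim one. Of 106 kept member probe sets with a mean intensity of 377 or more, 77 lay above 0 and 29 below, with a median of 0.13 and a standard deviation of 0.23. Of 24 dimmer ones, 13 lay above 0 and 11 below, with a median of 0.09 and a standard deviation of 0.83. RefSeq names 98 pseudogenes after 39 of the 75 genes, and 44 of the 75 were read by a probe set whose identifier marks possible cross-hybridisation, so signal from near-identical copies cannot be told apart there. Without such probe sets, 41 members remained, 29 above 0 and 12 below, with a median of 0.15. Some of the 41 were then read by a dimmer probe set, so these are not all the same measurements. MRPL23 was read at 80.7 in HCT116-CPEB4 and 18.3 in HCT116-GFP, and MRPL35 at 311 and 127. The MRPL23 probe set passed the filter only through the HCT116-CPEB4 array.

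Mitochondrial ribosomal proteins that carry other symbols had a median of 0.08 over 4 of the 5 listed. GADD45GIP1 (mL64) read 3217 in HCT116-CPEB4 and 2437 in HCT116-GFP (0.40), with all 3 probe sets above 0. CHCHD1 differed by 0.12, PTCD3 by 0.05 with probe sets on both sides of 0, and DAP3, a GTP-binding protein of the small subunit, by −0.18 with another probe set at 1.08. AURKAIP1 is not analysed here. The range of these 4 lay inside that of the MRPL and MRPS genes.

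Factors that assemble the mitochondrial ribosome and modify its RNA had a median of 0.15 over 28 genes, which was 0.08 under the stricter dim filter at 377 and at most 0.20 under the other alternatives. Of them 10 were higher and 3 lower at 1.2-fold, against 21.7% and 22.0% of all genes. The highest, GTPBP10, a GTPase of large-subunit assembly, read 62.8 in HCT116-CPEB4 and 12.1 in HCT116-GFP, so it passed the filter only through the HCT116-CPEB4 array. RPUSD3, a pseudouridine synthase family member, read 1322 in HCT116-CPEB4 and 885 in HCT116-GFP (0.58), and MTERF4, which brings the methyltransferase NSUN4 to the ribosome, 829 and 561 (0.56), but both genes also had probe sets below 0. The lowest were the RNA helicase DDX28 (−0.50, with 0.16 at its other probe set), the assembly GTPase MTG1 (−0.33) and the ribosomal RNA methyltransferase TFB1M (−0.29, with all 3 probe sets below 0). Members of this list thus lay well to both sides of 0.

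Translation factors of mitochondria had a median of 0.03 over 15 genes. At 1.2-fold 2 of them were higher and 0 lower, against 21.7% and 22.0% of all genes. Their median was 0.11 with all kept probe sets averaged and 0.01 without cross-hybridising ones. The release factor family member MTRF1 read 384 in HCT116-CPEB4 and 207 in HCT116-GFP (0.89), GUF1, the counterpart of a bacterial elongation factor, differed by 0.42 and the initiation factor MTIF3 by 0.23. The messenger RNA stabiliser LRPPRC (−0.15, with probe sets from −0.23 to 0.73), the recycling factor MRRF (−0.08) and the formyltransferase MTFMT (−0.06) were the lowest. Mitochondrial aminoacyl-tRNA synthetases and the subunits of the glutaminyl-tRNA amidotransferase had a median of 0.04 over 20 genes. Of these, 3 were higher and 3 lower at 1.2-fold, against the same 21.7% and 22.0% of all genes. FARS2 (0.56), QRSL1 (0.48) and LARS2 (0.36) were at the top and YARS2 (−0.65), PARS2 (−0.32) and NARS2 (−0.32) at the bottom. Both medians were nearer 0 than the 0.12 of the ribosomal protein genes by brightest probe set.

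Genes of mitochondrial transcription, RNA processing and DNA maintenance had a median of 0.19 over 18 genes, which ranged from 0.12 to 0.26 over the alternatives. Of the 18 genes, 8 were higher and 2 lower at 1.2-fold, against 21.7% and 22.0% of all genes. PNPT1, an RNA nuclease that is also an interferon-induced gene, read 4099 in HCT116-CPEB4 and 2702 in HCT116-GFP (0.60). The transcription elongation factor TEFM differed by 0.51 and TRMT10C, a subunit of mitochondrial RNase P, by 0.51. TOP1MT (−0.54), the RNase P nuclease PRORP (−0.27) and the termination factor MTERF1 (−0.25) were the lowest. Transcriptional regulators known to act on nuclear genes of mitochondria had a median of 0.10 over 11 genes. That median was 0.02 with all kept probe sets averaged and −0.030 without cross-hybridising ones, so its sign is not settled. HCFC1 read 505 in HCT116-CPEB4 and 219 in HCT116-GFP (1.2), but its second probe set gave −0.28, and GABPB1 (0.55) and TFEB (0.33) followed. GABPA, the DNA-binding partner of GABPB1, was the lowest (−0.43, with −0.47 at its second probe set). Next to it were MYC (−0.32) and CREB1 (−0.08, with probe sets from −0.35 to 0.39). The partners GABPA and GABPB1 thus differed in opposite directions, each at both of its probe sets.

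**Figure D3:**
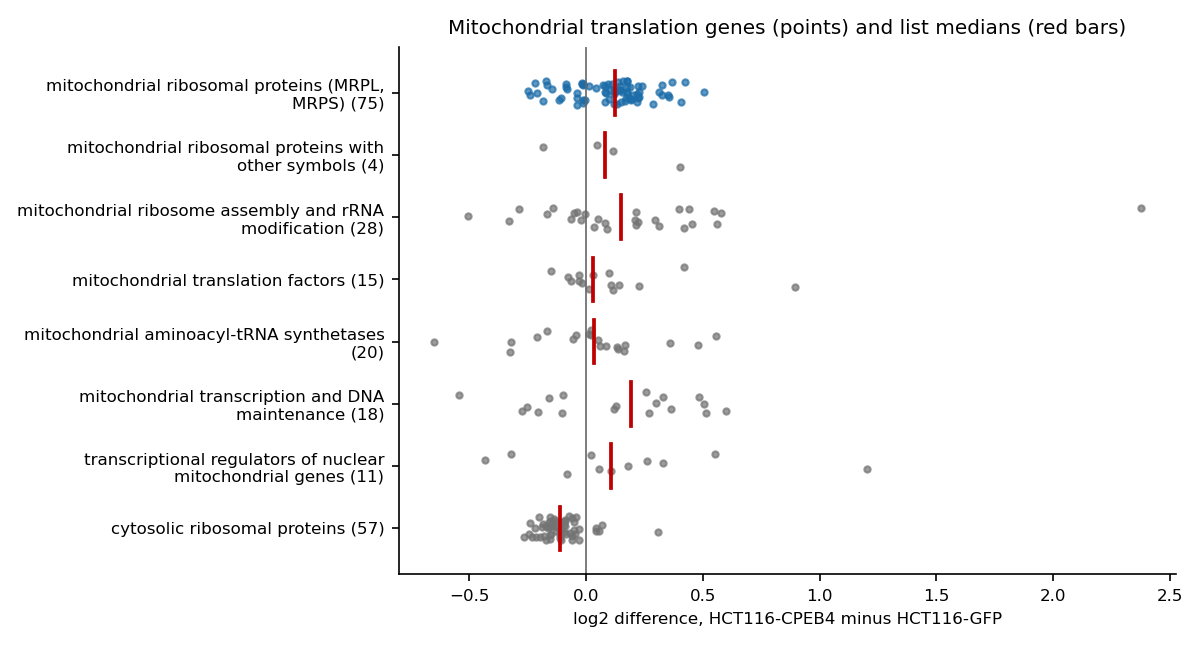
Log2 difference (HCT116-CPEB4 minus HCT116-GFP) of each measured gene, 1 point a gene at its brightest kept probe set, for the mitochondrial ribosomal protein genes (blue) and 7 other lists (grey), with the number of genes in parentheses and list medians as red bars. The median is 0.12 for the mitochondrial ribosomal protein genes and −0.11 for the cytosolic ones, and the assembly factors and the transcription genes are spread more widely than either.

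Cytosolic ribosomal protein genes, the nearest comparison in function, lay on the other side of 0. Of 86 listed genes 57 were measured. Of these 57 genes, 5 were above 0 and 52 below, with a median of −0.11, so 8.77% lay above 0, against 69.3% of the mitochondrial family. Many were far brighter than the mitochondrial family, up to 45176 in HCT116-CPEB4 for RPS12 against at most 16186 for a member. No genes of the same brightness are set beside them here. RPS7 read 28533 in HCT116-CPEB4 and 34316 in HCT116-GFP (−0.27), RPS4X differed by −0.24 and RPS14 by −0.24, with another RPS14 probe set at 1.16. The highest were RPL10L (0.31), RPL18 (0.07) and RPS12 (0.06), of which RPL10L was much dimmer, at 513 in HCT116-CPEB4 and 414 in HCT116-GFP. After quantile normalization the cytosolic median was −0.01 while that of the mitochondrial family was 0.12. The distance between the families therefore depends on the scaling, which moved the cytosolic median and not the mitochondrial one.

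**Figure D4:**
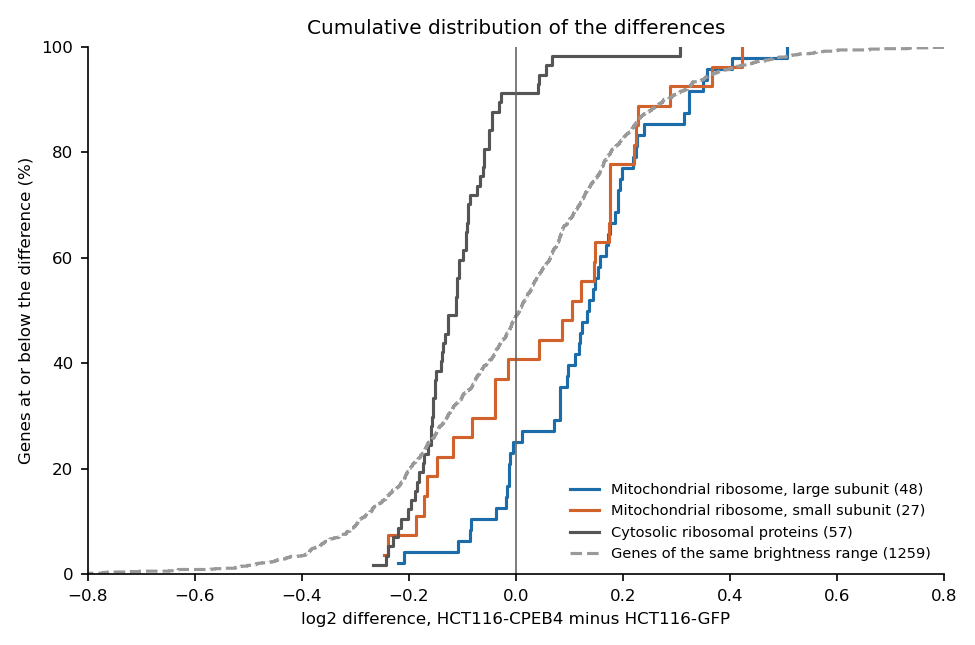
Share of genes (%) at or below each log2 difference (HCT116-CPEB4 minus HCT116-GFP), for large-subunit (blue) and small-subunit (orange) mitochondrial ribosomal protein genes, cytosolic ribosomal protein genes (dark grey) and the 1259 genes in the middle brightness range of the mitochondrial family (dashed). With subunits by symbol, 12 of 48 large-subunit and 11 of 27 small-subunit genes lie below 0, and the cytosolic curve stands to the left.

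Several members share a start region with a neighbour on the other strand. In RefSeq (GRCh38.p14) 69 of the 77 genes had a promoter entry, and 18 of these (26.1%) had a protein-coding gene starting within 1000 bases upstream on the opposite strand, against 10.2% of 15843 protein-coding genes. MRPL46 and MRPS11, of the large and the small subunit, start 320 bases apart and run away from each other. MRPS11 read 2106 in HCT116-CPEB4 and 1798 in HCT116-GFP (0.23), beside 0.36 for MRPL46, so both were in the upper part of the family. The 250 bases before the start of MRPS11, chr15:88467458-88467707 on the plus strand, lie between the 2 genes and overlap neither.
MRPS11 upstream: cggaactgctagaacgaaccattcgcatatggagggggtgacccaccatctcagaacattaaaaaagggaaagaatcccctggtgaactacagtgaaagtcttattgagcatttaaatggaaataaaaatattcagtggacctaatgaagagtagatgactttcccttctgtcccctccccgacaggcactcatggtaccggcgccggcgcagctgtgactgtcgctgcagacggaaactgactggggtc

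In 15 pairs the neighbour was a measured gene outside the family. The 15 members of these pairs had a median of 0.18, with 12 above 0 and 3 below, and their neighbours had a median of 0.04, with 8 above 0 and 7 below. MRPL27 was higher by 0.32 while EME1, a DNA repair endonuclease subunit that starts 45 bases away, read 1652 in HCT116-CPEB4 and 1845 in HCT116-GFP (−0.16). MRPS18C likewise stood at 0.42, beside −0.14 for the DNA helicase HELQ. The neighbours ranged from −0.30 for NCAPD2, opposite MRPL51, to 0.67 for CYB5RL, opposite MRPL37. CYB5RL was dim, at 93.0 in HCT116-CPEB4 and 58.5 in HCT116-GFP, and passed the filter only through the HCT116-CPEB4 array. MRPL49 (0.18) starts 49 bases from FAU, which encodes a cytosolic ribosomal protein and differed by −0.05.

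Sequence motifs of factors that act on nuclear genes of mitochondria were counted in the promoter windows, from 250 bases before the start to 50 bases from the start on, on both strands. The ETS core CCGGAAG, bound by the GABPA family, was found in 29 of 69 member promoters (42.0%), in 23 of 68 cytosolic ribosomal protein promoters (33.8%) and in 14.2% of 15843 protein-coding promoters. The YY1 motif AAGATGGC was found in 20 member promoters (29.0%), in 8 cytosolic ones (11.8%) and in 3.86% of all. The NRF1 motif (GCGCA, any base, GCGC) was found in 8 member promoters (11.6%), in 7 cytosolic ones (10.3%) and in 8.58% of all. At least 1 of the 3 was present in 45 member promoters (65.2%) and in 23.5% of all, and 8 members held ETS and YY1 motifs together. A match shows letters and not binding.

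The windows below show the ETS motif, in capitals, in the pair of members with the highest and the pair with the lowest difference among its carriers. Each is 30 bases from RefSeq GRCh38.p14, written 5′ to 3′ on the strand of the gene.
MRPS18C, chr4:83455825-83455854 (plus strand): gggctcgcggaCCGGAAGcacgcataaact
MRPL52, chr14:22829871-22829900 (plus strand): ggccacgcctaCTTCCGGctaccccggcta
MRPS18A, chr6:43687804-43687833 (minus strand): ggcgctacgttCCGGAAGcggaaatggacg
MRPS10, chr6:42217865-42217894 (minus strand): ccgctgtaaccCCGGAAGcaatcctgagag

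MRPS18C stood at 0.42, MRPL52 at 0.35, MRPS18A at −0.15 and MRPS10 at −0.17, each at its brightest probe set. The low pair is not firmly low, since MRPS18A had 0.19 at its second probe set and MRPS10 had 0.06 and 0.23 at its others. In MRPL52 the motif is on the opposite strand and therefore reads CTTCCGG. In MRPS18C it begins 222 bases before the start, inside the span of HELQ. Carriers of the ETS motif had a median of 0.16 over 28 measured genes, and the members without it 0.10 over 39.

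The YY1 motif mostly lay just after the start, at a median of 11 bases downstream, and began at or after the start in 15 of 20 genes, whereas the ETS motif began before the start in 26 of 29. The next windows show the YY1 motif, in capitals, in carriers chosen in the same way and in MRPS18B.
MRPL46, chr15:88467362-88467391 (minus strand): tgggagaacgaAAGATGGCggcgcccgtaa
MRPL52, chr14:22829778-22829807 (plus strand): tacgatgacccAAGATGGCggagccgtgat
MRPS18B, chr6:30617852-30617881 (plus strand): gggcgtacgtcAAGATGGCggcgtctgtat
MRPS18A, chr6:43687764-43687793 (minus strand): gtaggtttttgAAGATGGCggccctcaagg
MRPS10, chr6:42217834-42217863 (minus strand): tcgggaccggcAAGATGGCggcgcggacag

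In all 5 the motif is on the strand of the gene and is followed by the letters gg, and their differences ran from 0.36 for MRPL46 to −0.17 for MRPS10, whose sign varies by probe set. Carriers of the YY1 motif had a median of 0.08 over 19 measured genes, and the members without it 0.12 over 48. The highest and the lowest member, MRPL19 and MRPS14, held none of the 3 motifs in their windows. MRPL40 (0.32) had the highest difference among members with an ETS motif wholly before the start in a stretch that overlaps no other gene, and the motif, 11 bases before the start, is shown in capitals in the 250 bases that precede MRPL40.
MRPL40, chr22:19432295-19432544 (plus strand): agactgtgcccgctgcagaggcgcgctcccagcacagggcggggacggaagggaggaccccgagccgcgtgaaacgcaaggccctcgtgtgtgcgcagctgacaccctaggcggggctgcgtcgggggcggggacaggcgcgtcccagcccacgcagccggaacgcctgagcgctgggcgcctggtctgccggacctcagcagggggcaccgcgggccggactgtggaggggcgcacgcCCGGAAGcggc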

How the data were processed

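RNA of 2 HCT116 lines was hybridised to 1 array each. The deposited values are linear intensities per probe set, made by the authors. The submitters' processing notes name Partek without a role; background correction, summarisation and scaling were not given in the sources used here. Of 54675 probe sets, the platform annotation pairs 41097 with 1 symbol, 1801 with several and 11777 with none; 41043 were found in RefSeq (GRCh38.p14) by Entrez ID and took its current symbol. Probe sets with several symbols were left out. The dim filter at the 50th percentile of all values kept 25010 probe sets of 13704 genes. The 2 arrays were compared as deposited with Python 3.11.15, numpy 2.4.6 and pandas 2.3.3, and the calculation was tested on simulated intensities. Alternatives were other filters and scalings (loess by statsmodels 0.14.6), another rule for genes with several probe sets, and a pseudocount of 16. The number of arrays limits the precision, and samples were grouped by their titles. Values are named for the 10 highest and 10 lowest members, for members with a particular role or disagreeing probe sets, and for the 3 highest and 3 lowest genes of each other list. Members and lists were chosen with earlier results of these data known. Sequences are RefSeq's.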

Additional observations from a re-analysis of the deposited data

How the results depend on the processing

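Of 148 values recomputed under 10 alternatives, 139 kept their direction and moved by less than 0.1 (log2, medians) or 1.5 times (counts), 8 moved further and 1 reversed. The median of the mitochondrial ribosomal protein genes ranged from 0.12 to 0.15 over its 9 alternatives, the gap between the large and the small subunit from 0.01 to 0.08, and the number of members higher at 1.2-fold from 9 to 14. Averaging the kept probe sets gave 1 member lower at 1.2-fold, 1 higher at 2-fold and a median of 0.24 for the mitochondrial ribosomal proteins with other symbols. Leaving out probe sets with possible cross-hybridisation left 41 members, so that 29 lay above 0 and 12 below. Of these, 1 was lower at 1.2-fold and 2 were higher at 2-fold, MRPL23 and MRPL35, both then read by dimmer probe sets. The dimmer probe set of MRPL23 passed the filter only through the HCT116-CPEB4 array. It also entered the average that put MRPL23 past 2-fold. The median of the transcriptional regulators reversed to −0.030. The tolerance of 0.1 is close to the size of the medians, so the medians of other lists could move by a large factor within it, from 0.08 to 0.20 for the assembly factors, 0.01 to 0.11 for the translation factors, 0.02 to 0.05 for the synthetases and 0.12 to 0.26 for the transcription genes. Quantile normalization brought the median of the cytosolic ribosomal proteins to −0.0051. The causes of these changes were not tested, except that fewer members were left without cross-hybridising probe sets. Leaving out the 9 members whose probe sets disagree was chosen after seeing the data. By gene, 52 members were above 0 and 20 below 0 under the deposited, quantile and loess scalings alike, and MRPL45, MRPL24 and MRPS9 changed sign. No paired analysis was possible because each group has 1 array, and for the same reason no array could be left out. Signal over background could not be judged beyond the dim filter, since the values carry no detection calls.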

Other observations

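Some probe sets fall outside the rule for the family or could not be given to 1 gene. MRPS24, which has no probe set of its own, shares one with a read-through transcript of URGCP, which read 10964 in HCT116-CPEB4 and 11130.0 in HCT116-GFP (−0.02). MRPL53 shares a probe set with CCDC142, which read 5152 in HCT116-CPEB4 and 5010 in HCT116-GFP (0.04). A further probe set, shared by MRPL51 and SPTLC1, differed by 0.02. KGD4, formerly called MRPS36 and now known as a subunit of the oxoglutarate dehydrogenase complex, read 6898 in HCT116-CPEB4 and 5901 in HCT116-GFP (0.23). The antisense gene MRPL20-AS1 read 935 in HCT116-CPEB4 and 816 in HCT116-GFP (0.20), beside 0.24 for MRPL20.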
